A study of Mus musculus with 12 samples.

Results

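In mouse embryonic stem cells (ESCs), 470 of the 54825 genomic bins of 10 kb that the authors listed at 0 h or 24 h carry a mark in the sixth column of the ESC lists. No source used here names this column, so the bins are called column 6 bins. A bin was a member if its column 6 value was above 0 in either list. The column holds 0 or 1, and it was equal in both lists on all 41942 bins listed at both times. Of the 470 bins, 465 were listed at both times, 2 at 0 h only and 3 at 24 h only.

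The ESCs were of the V6.5 line, grown on irradiated feeder cells with serum, LIF and 2i (inhibitors of MEK and GSK3). They carried a lentiviral vector with doxycycline-inducible Cas9 and guide RNAs, and clonal populations were picked, of which the number per sample is not given. The 0 h cells had received no doxycycline and are labelled WT. The 24 h cells had received doxycycline for 24 h to cut KLF genes. The labels name guides either to KLF4 alone or to KLF2, KLF4 and KLF5 together, and call these samples both TKO and KLF4 KO, so the targeted set cannot be settled from them. The acetylated histone H3K27ac was immunoprecipitated at 0 h (n = 2) and 24 h (n = 2), and KLF4 (n = 2) and H3K27ac (n = 2) were immunoprecipitated in induced pluripotent stem cells (iPSCs) under 2i. Each group is deposited as 1 list with no value per replicate. No difference below therefore has a replicate check or a p-value, and the 95% intervals cover counting error only, over bins except where stated. Neighbouring bins often share a value, which makes those intervals too narrow.

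H3K27ac marks active enhancers and promoters, and long stretches of it are known at genes that define a cell's identity. KLF4, KLF2 and KLF5 are zinc finger transcription factors that bind GC-rich and CACCC-type sites and hold mouse pluripotent cells in the naive state together with ESRRB, NANOG and TBX3. KLF4 positions here come from iPSCs, which are not the cells in which column 6 was given. KLF4 binding in the ESCs was not analysed here.

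Of the 32851 promoter windows of RefSeq (GRCm38.p6, 250 bases before to 50 after a gene's start), 133 windows of 108 genes lay in column 6 bins. A KLF4 peak overlapped 37 of them (27.8%), against 15.7% of all windows. The promoters shown belong to pluripotency genes that had both a column 6 bin and a KLF4 peak on the promoter, to show the sequence where the peak lies. The whole window of 300 bases is printed, and the extent of the peak is not marked. At Pou5f1 the peak was only 103 bases wide. Capitals mark the motif GGGNGTGG on either strand.
Nr5a2: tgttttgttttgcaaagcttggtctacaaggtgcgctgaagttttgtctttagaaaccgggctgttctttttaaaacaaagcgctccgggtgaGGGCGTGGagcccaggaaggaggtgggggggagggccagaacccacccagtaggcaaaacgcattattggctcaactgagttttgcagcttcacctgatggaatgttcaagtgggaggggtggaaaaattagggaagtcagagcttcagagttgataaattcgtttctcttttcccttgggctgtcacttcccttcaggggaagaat
Tdgf1: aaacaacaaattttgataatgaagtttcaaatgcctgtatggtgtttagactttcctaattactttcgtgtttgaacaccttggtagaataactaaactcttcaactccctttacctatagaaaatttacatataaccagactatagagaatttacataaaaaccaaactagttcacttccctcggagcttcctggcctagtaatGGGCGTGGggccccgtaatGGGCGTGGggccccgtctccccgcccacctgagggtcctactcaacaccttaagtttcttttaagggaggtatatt
Pou5f1: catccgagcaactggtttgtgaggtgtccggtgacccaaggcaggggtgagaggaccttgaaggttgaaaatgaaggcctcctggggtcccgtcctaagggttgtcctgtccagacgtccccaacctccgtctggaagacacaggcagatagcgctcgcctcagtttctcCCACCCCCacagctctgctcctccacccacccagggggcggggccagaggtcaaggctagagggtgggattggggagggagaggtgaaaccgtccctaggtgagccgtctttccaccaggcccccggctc
Klf2: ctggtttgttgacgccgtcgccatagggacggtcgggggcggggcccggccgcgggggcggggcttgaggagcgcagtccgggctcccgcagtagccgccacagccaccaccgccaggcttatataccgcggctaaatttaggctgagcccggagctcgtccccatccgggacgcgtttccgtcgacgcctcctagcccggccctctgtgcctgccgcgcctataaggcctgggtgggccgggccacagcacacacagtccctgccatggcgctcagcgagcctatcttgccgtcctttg
They lie at chr1:136953581-136953880 (minus strand), chr9:110946109-110946408 (minus), chr17:35505782-35506081 (plus) and chr8:72318812-72319111 (plus). Nr5a2 (a nuclear receptor that can drive Pou5f1) and Pou5f1 (OCT4) hold 1 match each. Tdgf1 (the NODAL co-receptor CRIPTO) holds 2. Klf2, itself a KLF gene, holds none, although a KLF4 peak of 310 bases covers most of the window. The Fgf4 and Utf1 promoters also lay in column 6 bins under a KLF4 peak, and held no match.

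GGGNGTGG, searched on both strands, occurred in 20.3% of the 133 windows in column 6 bins and in 17.6% of all windows. It occurred in 34.1% of the 5150 windows with a KLF4 peak and in 13 of the 37 such windows in column 6 bins (35.1%). The 37 windows are too few to tell these rates apart. The ESRRB half-site AAGGTCA was in 3.76% of the windows in column 6 bins against 4.72% of all, the octamer ATGCAAAT in 3.01% against 1.74%, and CCAAT in 29.3% against 37.4%. A match describes letters in the window and not a bound site.

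Column 6 bins also held 34 mature microRNA sequences of RefSeq. They are shown because a pair of clusters, on chromosome 7 and on the X, share most of a seed, the bases 2 to 8 that choose a target and are written here in capitals.
miR-290a-3p: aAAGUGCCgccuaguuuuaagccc
miR-291a-3p: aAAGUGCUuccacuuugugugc
miR-291b-3p: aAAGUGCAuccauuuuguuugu
miR-20b-5p: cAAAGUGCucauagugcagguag
miR-106a-5p: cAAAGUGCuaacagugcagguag
miR-363-3p: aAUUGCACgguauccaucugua
miR-92a-3p: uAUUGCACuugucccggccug
The first 3 belong to the miR-290 cluster, the main microRNA cluster of mouse ESCs, and the rest to the miR-106a cluster on the X. The letters AAGUGC lay within the seed of 5 of the 34 mature sequences (14.7%) and of 16 of all 1679 (0.953%). These letters were chosen because the clusters share them, and all 5 sequences come from the clusters. The shares are thus a description and no test of enrichment. miR-20b-5p and miR-106a-5p share the seed AAAGUGC. miR-363-3p and miR-92a-3p share the seed AUUGCAC.

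Column 6 bins were strongly acetylated. The last column of the ESC lists was read as the H3K27ac value, on the authors' scale. At 0 h 451 of the 470 bins had a value, with a median of 8.68 (95% interval 8.19 to 9.20, range 2.44 to 29.7), against 4.61 in 26361 valued bins without the mark. At 24 h 446 bins had a value, with a median of 6.86 (6.45 to 7.39) against 4.02. The median column 6 bin stood at percentile 89.8 of all valued bins at 0 h. Of the valued column 6 bins, 221 (49.0%) were among the 2681 bins of highest value, the uppermost of 10 equal groups. These 221 were 8.24% of that group, so most highly acetylated bins lacked the mark, and 53 column 6 bins (11.8%) were in the lower 5 groups. In all, 444 column 6 bins were valued at both times, 7 at 0 h only, 2 at 24 h only and 17 at neither.

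**Figure D1:**
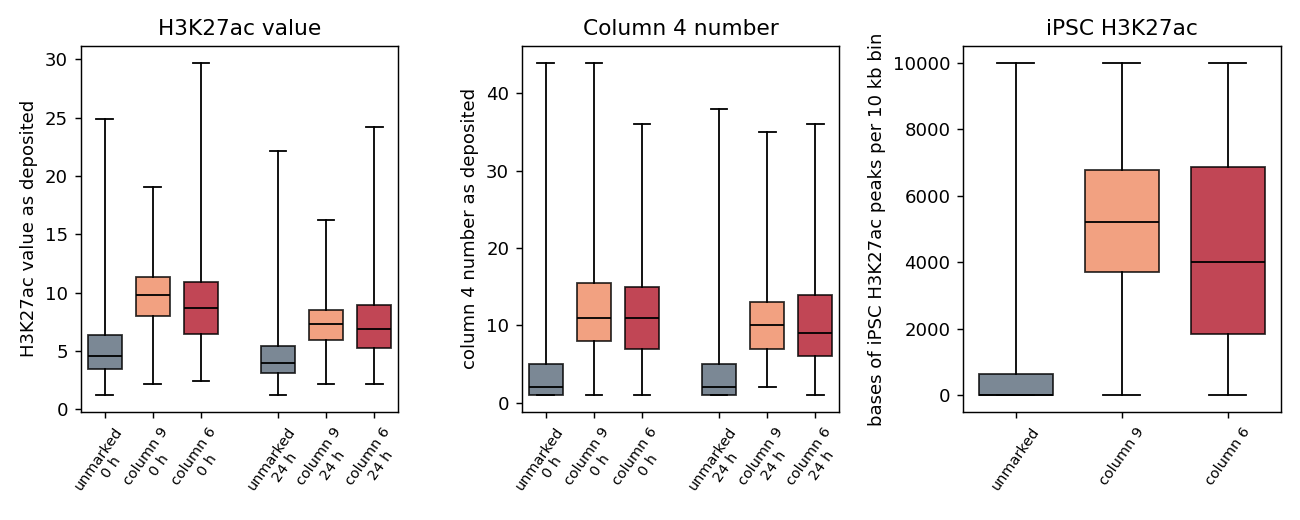
Deposited H3K27ac value (left), column 4 number (middle) and bases of iPSC H3K27ac peaks per bin (right) for bins without the column 6 mark, bins with the column 9 mark and bins with the column 6 mark; boxes give the quartiles, lines the median, whiskers the lowest and highest bin. Column 9 bins are also among the bins without the column 6 mark. At 0 h the medians of the value were 4.61, 9.81 and 8.68, with ranges that overlap.

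KLF4 peaks of iPSCs were common in these bins. Of the 470 bins, 320 held a KLF4 peak (68.1%, exact binomial interval 63.7 to 72.3), against 22.5% of bins without the mark and 37.4% of those with a 0 h value. At least 2 KLF4 peaks lay in 159 bins (33.8%), against 4.53% of unmarked bins. An iPSC H3K27ac peak lay in 437 bins (93.0%), against 38.1% of all unmarked bins and 73.2% of valued ones. Both kinds of peak lay in 312 bins and neither in 25. The median column 6 bin had 4003 bases under iPSC H3K27ac peaks.

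KLF4 peaks were more frequent in bins of higher value, so column 6 bins were next set against unmarked bins of the same 0 h value, in 10 groups of value. At equal value 69.8% of column 6 bins and 50.4% of unmarked bins held a KLF4 peak, a difference of 19.4 percentage points (15.0 to 23.6). The difference was above 0 on 18 of 20 chromosomes. For 2 or more KLF4 peaks it was 21.4 points (17.0 to 26.05). An iPSC H3K27ac peak was in 96.7% against 87.7%, and the bins had 2270 more bases under such peaks (1882 to 2804) by the median. In the uppermost group 81.4% of 221 column 6 bins held KLF4 against 57.0% of 2460 unmarked bins, while in the third group the shares were 27.3% of 11 and 25.9% of 2667.

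Column 6 bins were not richer in gene starts. A gene start lay in 99 of the 470 (21.1%). At equal 0 h value it was in 21.7% against 30.5% of unmarked bins, a difference of -8.74 points (-12.46 to -4.64). A gene end of either kind lay within 2 kb of 30.2% against 45.4%, a difference of -15.2 points (-19.4 to -10.7). When the bins were also matched on this class of gene end, the gene start difference was -1.62 points (-5.34 to 2.48). The class itself includes starts of protein-coding genes, so this matching takes out part of the difference by its definition. It cannot show whether gene starts were as frequent in column 6 bins.

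**Figure D2:**
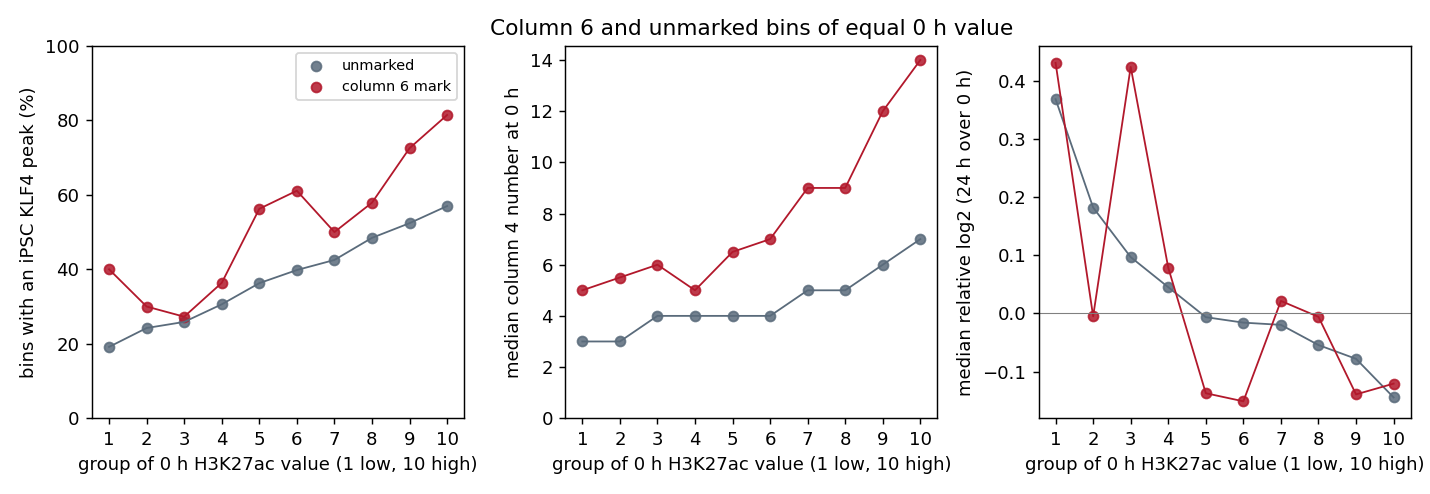
Share of bins with an iPSC KLF4 peak (left), median column 4 number at 0 h (middle) and median relative log2 H3K27ac value (right) in 10 groups of 0 h value, for bins with and without the column 6 mark. Points for marked bins rest on 5 to 221 bins on the left, and on the right on 3, 9, 8 and 10 bins in the lowest 4 groups; the marked bins are above the unmarked ones in every group on the left and in the middle, and on both sides of them on the right.

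The 470 bins joined into 228 contiguous domains on 20 chromosomes. Of these, 74 were 1 bin long, 87 were 2 bins, 52 were 3, 12 were 4 and 3 were 6, with a median of 20 kb. Domains of 2 or more bins held 396 of the bins (84.3%). A KLF4 peak lay in 207 domains (90.8%), with a median of 2 and up to 8 peaks, and an iPSC H3K27ac peak in 221. Domains overlapped a protein-coding gene in 139 cases, lay within 100 kb of one in 82 and had none that near in 7. Single-bin domains held 1.81 KLF4 peaks per bin and domains of 4 or more bins 0.818. Of the 149 domains with at least 2 valued bins at 0 h, 79 held 1 value throughout, so their bins are not separate measurements.

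The domains had a sharp edge for KLF4, and the median H3K27ac value of valued bins fell more slowly. In the adjacent listed bins 28.8% held a KLF4 peak, against 68.1% in the domains, and 24.1% did so 50 kb away. The median 0 h value went from 8.68 in the domains to 6.87 in the adjacent bins, 5.05 at 20 kb and 4.53 at 50 kb. These medians leave out bins without a value. Valued bins were 96.0% in the domains, 74.0% in the adjacent bins and 57.1% at 50 kb. Neighbouring bins also often share a value, and how far both points slow the fall was not tested. The column 4 median went from 11 to 6 in the adjacent bins and was 5 at 50 kb. The share with an iPSC H3K27ac peak went from 93.0% to 62.9% and then 44.3%. Column 6 bins also lay in large stretches of iPSC acetylation: 282 of them (60%) were in the 500 largest clusters of iPSC H3K27ac peaks (peaks within 10 kb joined), against 8.35% of unmarked valued bins. These shares are not at equal 0 h value, and column 9 bins were not counted in the clusters. Such a cluster was touched by 136 of the 228 domains, and column 6 bins were 11.3% of the clusters' bins.

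**Figure D3:**
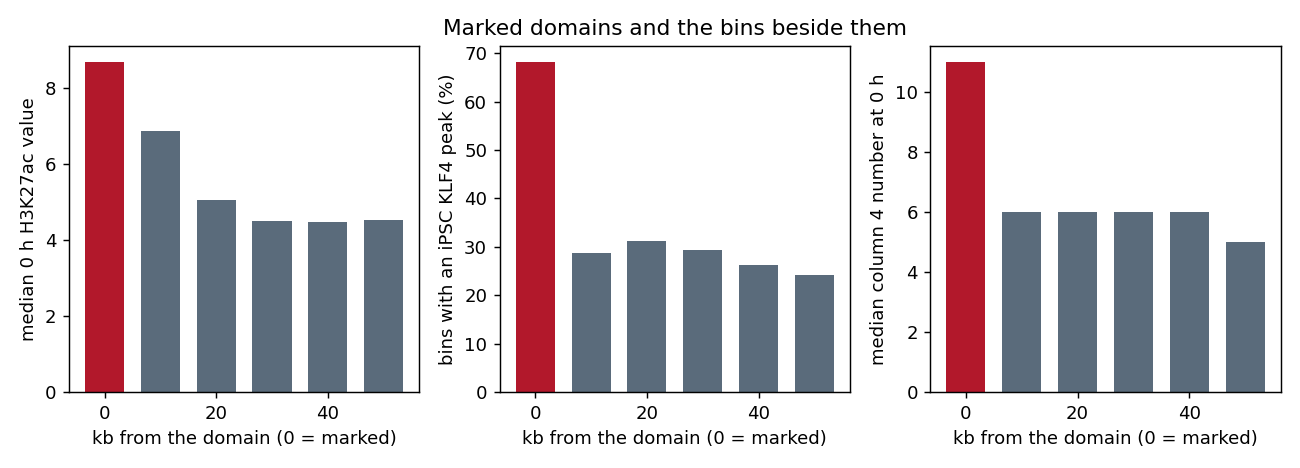
Median 0 h H3K27ac value (left), share of bins with an iPSC KLF4 peak (middle) and median column 4 number at 0 h (right) in column 6 domains (red, at 0) and in listed bins 10 to 50 kb from the nearest domain (grey). KLF4 and column 4 drop at the first bin outside, while the median over valued bins goes from 8.68 through 6.87 to 5.05.

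Naive pluripotency genes were the best represented list. A column 6 bin overlapped 11 of 24 of them, against 155 of 21883 protein-coding genes (0.708%), and 5 more were the nearest gene of a domain. Of the 21883 genes 13156 had a listed ESC bin, as had all 24 naive genes. The list was chosen with Esrrb, Nanog and Tbx3 known to be members, so its count is a description. Esrrb, an orphan nuclear receptor, had 4 column 6 bins in its body on chromosome 12. Their 0 h values were 10.9 in 3 bins and 29.7 in the last, the highest of all members, and their 24 h values 8.71 and 24.2. Column 4 was 12, 17, 16 and 22 at 0 h and 11, 15, 11 and 21 at 24 h. All 4 held KLF4 peaks, 10 in all. All 4 values were lower at 24 h, but with relative log2 values of only -0.10 and -0.07.

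The relative log2 value is the log2 ratio of the 24 h to the 0 h value minus -0.23, its median over all 22739 bins valued at both times. Nanog, the homeobox factor, had 1 bin over its gene on chromosome 6, with 10.0 at 0 h and 7.87 at 24 h (relative -0.12) and column 4 going from 22 to 18. The adjacent bin, 7489 bases from the gene, had the same H3K27ac values and a column 4 number of 12 at both times. A bin 37489 bases from the gene, nearest to Dppa3, had 9.20 and 6.27 (relative -0.33). The bins over Slc2a3, a glucose transporter gene beside Nanog, had 13.2 and 9.16 (relative -0.30). Tbx3, a T-box factor, lay in a domain of 6 bins on chromosome 5, and a second domain of 2 bins lay 80534 bases away.

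The Tbx3 domains were the most mixed of the 3 loci. Both bins over the gene had 9.23 at 0 h and 6.78 at 24 h (relative -0.22). A bin 15277 bases downstream was higher at 24 h, 6.13 against 5.31 (relative 0.43), while the bin farthest upstream went from 4.94 to 2.58 (relative -0.71). The bin nearest downstream had no value at either time and a column 4 number of 2. The 2 upstream bins held 2 and 5 KLF4 peaks.

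The other naive genes with a column 6 bin were Klf2, Tfcp2l1, Nr5a2, Dppa5a, Tdgf1, Fgf4, Tet2 and Jam2. All 8 had lower values at 24 h and relative values below 0. The median ratio of the 24 h to the 0 h value over all bins was 0.854. A relative value below 0 was found in 70.0% of column 6 bins and 49.6% of unmarked bins. In the uppermost group of 0 h value the unmarked median was -0.14. Dppa5a, an RNA-binding protein of the early embryo, had 16.3 and 12.1 (relative -0.21). Tet2, a DNA demethylase, had the lowest relative value of the list, -0.48 ± 0.01 (SD over 3 neighbouring bins), with highest values of 8.94 and 5.47. Jam2, a junction protein, followed at -0.37 with 13.5 and 8.92, and Tdgf1 was nearest to 0 at -0.03 with 9.79 and 8.16. No such gene reached the fold of 0.5 used for calls.

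**Figure D4:**
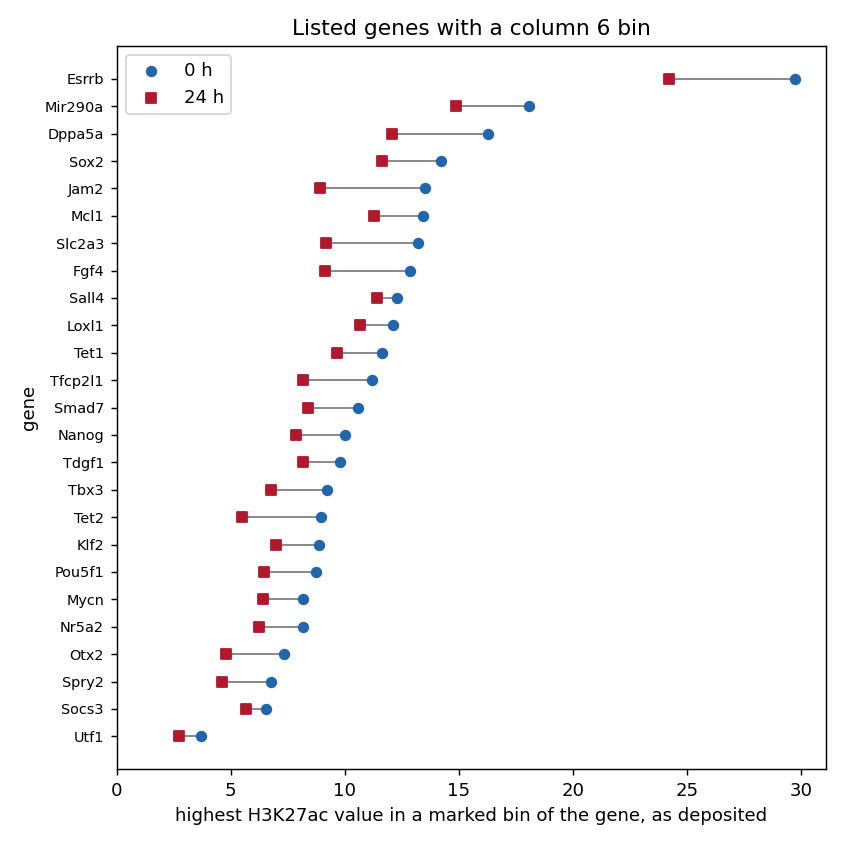
Highest deposited H3K27ac value at 0 h (blue circle) and 24 h (red square) among the column 6 bins of each listed gene valued at both times. Every gene is lower at 24 h as deposited, and the median ratio of 24 h to 0 h over all bins was 0.854. Esrrb is highest at 29.7 and 24.2, Utf1 lowest at 3.68 and 2.75.

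Of 20 pluripotency genes shared by naive and primed cells, 5 had a column 6 bin. Pou5f1 had 8.73 at 0 h and 6.45 at 24 h (relative -0.21). Sox2, its partner factor, had 14.2 and 11.6 in both bins over the gene (relative -0.06), and a second domain of 4 bins lay 77540 bases away, with values up to 15.0 and 11.5 and 5 KLF4 peaks. Mycn, a MYC family factor, had 8.16 and 6.42 (relative -0.12). Utf1, a chromatin-bound factor of ESCs, had 3.68 and 2.75. Sall4, a zinc finger factor, went the other way: its bin had 12.3 and 11.4 (relative 0.12), and its 4-bin domain held no KLF4 peak.

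Other lists had few members in number, though even 1 gene in a list this short is a share above the 0.708% of all protein-coding genes. The lists were chosen with earlier results known, so these counts are a description. Otx2, a regulator of the exit from the naive state, was the 1 of 14 primed or formative genes (7.35 and 4.80, relative -0.32). LIF and STAT3 response genes gave Socs3 and Mcl1 (2 of 13), with relative values of 0.02 and -0.02. FGF and ERK genes gave the feedback inhibitors Spry2 and Spry4 (2 of 12), and Spry4 had no value at either time. Nodal and BMP genes gave Id1 and Smad7 (2 of 13), and Id1 had 2.87 at 0 h and none at 24 h. Chromatin regulators gave Tet1 (1 of 21) and glycolysis Slc2a3 (1 of 14). Of the microRNA genes, 3 of 9 were members, Mir290a, Mir291a and Mir292 in 1 bin with 18.1 and 14.9.

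No gene of the KLF and SP list (17, without Klf2, Klf4 and Klf5) was overlapped, although Klf3, Klf9 and Klf13 were nearest to a domain. None of the Wnt list (12) was. Of genes that mark other cell types, none of 11 trophectoderm, 10 primitive endoderm and 8 neural genes had a column 6 bin. A listed ESC bin was found at 9, 4 and 6 of them. Among all protein-coding genes 0.708% had a column 6 bin. In lists this short, the KLF and SP and the Wnt list included, a count of 0 cannot be told from that share. Of 13 fibroblast genes, which could come from feeder cells, Loxl1 had 1 (12.1 and 10.7), with 3 KLF4 peaks in its domain. The part of feeder cells in the signal was not tested. All 24 naive and 19 of 20 shared pluripotency genes had a listed ESC bin, against 6 of 13 fibroblast genes.

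Klf2, Klf4 and Klf5, the KLF genes that the labels name for guides, differed in how column 6 bins lay near them. Which of them were targeted cannot be settled from the labels. Klf2 had a single-bin domain over the gene, with 8.86 and 6.98 (relative -0.12), column 4 of 10 at both times and 2 KLF4 peaks. A domain of 3 bins lay 47137 bases from Klf4, with 17.3 at 0 h and 12.1 at 24 h in each bin (relative -0.28) and column 4 going from 55 to 50. A domain of 3 bins lay 16589 bases from Klf5, with 10.8 and 9.72 (relative 0.08). Its summed column 4 number went from 79 to 96, the largest gain of any domain.

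In most column 6 bins the ratio of the 24 h to the 0 h value was below that of the median bin, while their median 24 h value was higher than that of unmarked bins. Of 444 bins valued at both times, 311 (70.0%) had a relative value below 0, against 49.6% of unmarked bins, and the median was -0.10 (-0.13 to -0.08). Past a fold of 0.5 on the relative log2 scale, 37 were lower (8.33%), beside 7.74% of all bins, so this count was near the background. Only 11 were higher (2.48%), beside 7.25% of all bins. Of the 451 bins valued at 0 h, 7 had no value at 24 h (1.55%), against 15.2% of all bins and 7.74% of unmarked bins at equal 0 h value.

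Relative values were lower in bins of higher 0 h value, with a median over unmarked bins of 0.37 in the lowest of the 10 groups and -0.14 in the uppermost. Against unmarked bins of equal 0 h value, the relative value differed by 0.01 (-0.02 to 0.04), and it was below 0 on 10 of 20 chromosomes. Matched on the mean of both times instead, it differed by -0.06 (-0.09 to -0.03). At equal 0 h value it was also below 0 with 1 bin per domain (-0.006) and against bins without any mark (-0.002), with intervals that include 0. The sign was thus not fixed, and all these differences were small beside the SD of 0.308 among column 6 bins. The median relative value without centring was -0.33.

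Within column 6 bins, the relative value varied with KLF4 peaks. In 133 valued bins without a KLF4 peak the median was -0.01 (-0.04 to 0.06), and 51.9% were below 0. It was -0.13 with 1 peak (n = 155), -0.15 with 2 (n = 107) and -0.10 with 3 or more (n = 49), with 72.9%, 87.9% and 71.4% below 0. The median 0 h value also rose along these classes, from 6.96 through 8.35 and 9.95 to 11.05, and its part in the difference was not tested. Past the fold, 30 of 311 column 6 bins with KLF4 were lower (9.65%), beside 11.8% of all bins with KLF4, and 7 of 133 without (5.26%), beside 5.15% of all bins without. Of those with KLF4 1 was higher (0.322%), beside 3.07%, and of those without 10 were (7.52%), beside 9.91%. The split by KLF4 thus ran the same way over all bins. The 10 higher bins lay in 5 domains, among them those of Sall4, Ccdc160 and Ldhb, and neighbours among them shared values. At equal 0 h value, column 6 bins with KLF4 differed from unmarked bins with KLF4 by 0.01 (-0.02 to 0.05), and those without from unmarked bins without by 0.04 (0.002 to 0.10).

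**Figure D5:**
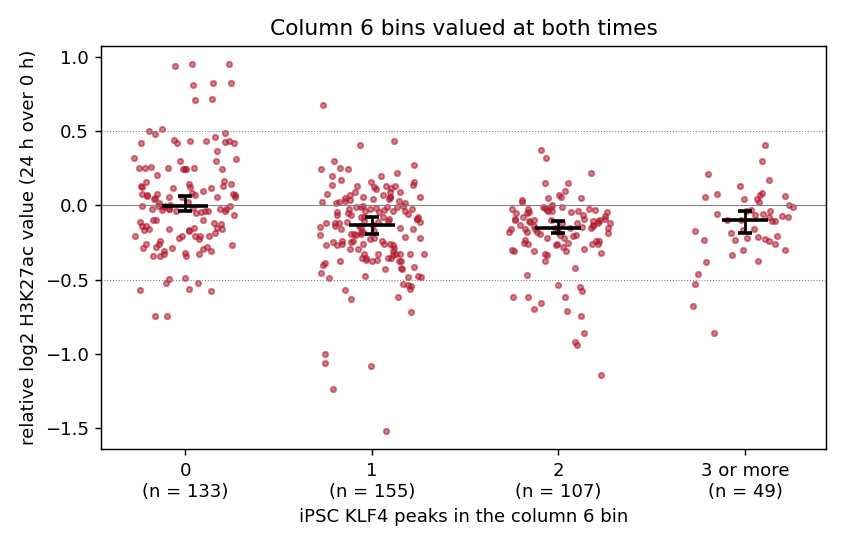
Relative log2 H3K27ac value (24 h over 0 h, centred on all bins) of each column 6 bin valued at both times, by the number of iPSC KLF4 peaks in it; black bars give the median and its 95% interval, dotted lines the fold of 0.5. Sideways spread within a class is random. Above the upper line lie 10 of 133 bins without KLF4, in 5 domains (7.52%, beside 9.91% of all bins without KLF4), and 1 of 311 with KLF4.

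Bins of lowest relative value were near signalling and other genes. The single bin nearest Lefty2, a NODAL inhibitor gene, went from 7.87 to 2.35 (relative -1.52), the lowest of all members. Among domains with 2 or more bins valued at both times, that over Dmtn and Fgf17, an FGF ligand gene, had the lowest mean, -0.99 ± 0.35 (SD over 2 bins). The domain nearest Epha2, an ephrin receptor gene, had 14.5 and 6.85 in both bins (relative -0.86), and those of Pitpnc1, Pde1b and Itpk1 had -0.82, -0.74 and -0.74. All 5 domains held KLF4 peaks, between 1 and 5, as did 207 of all 228 domains (90.8%).

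Among domains with 2 or more bins valued at both times, the 5 of highest relative value were those of Ldhb, the miR-106a cluster, Sall4, Ski and Ahi1. Both bins over Ldhb, the lactate dehydrogenase B gene, had 3.72 and 5.64 (relative 0.83). The domain of 3 bins with the miR-106a cluster, 21200 bases from Ccdc160 on the X, had highest values of 7.73 and 11.6 (0.82 ± 0.12). The Sall4 domain had 0.68 ± 0.39 over 4 bins, and 2 of its bins outside the gene went from 5.40 to 8.91. Ski, a SMAD corepressor gene, had 0.43 and Ahi1 0.38. Of these 5 domains, 4 held no KLF4 peak, and Ahi1 held 3. Counting domains with 1 bin valued at both times as well, Nav2 (0.46), Ddit4 (0.42) and Rara (0.41) also stood above Ahi1 with 1 KLF4 peak each, so that 4 of the 8 highest held KLF4. These 3 were named after their values were seen. Among all domains 21 held none. By contrast the miR-290 domain, which overlaps Nlrp12, held 8 KLF4 peaks, the most of any, and 18.1 and 14.9 in all 3 bins (relative -0.05).

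Long domains had relative values on both sides of 0. The 3 domains of 60 kb lay over Myo10, a filopodial myosin gene, beside Prdm14, a naive-state regulator, and over Tbx3. Their highest 0 h values were 12.51, 11.2 and 9.23, with mean relative values of 0.18, -0.04 and 0.03. The domain of 4 bins over Gabrp, a GABA receptor subunit gene, had 13.3 and 9.49 and 7 KLF4 peaks. That over Alpl, the alkaline phosphatase used to stain stem cells, had highest values of 12.4 and 9.44 (-0.16). The domain near Klf9 had 16.8 and 12.9, and the one over Ppp2r5c, a phosphatase subunit gene, 11.7 and 9.02 (-0.25).

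Column 4 gives each listed bin an unnamed whole number, 1 at least. Its median in column 6 bins was 11 at 0 h and 9 at 24 h, against 2 in unmarked bins at both times. At equal 0 h H3K27ac value it was 5 higher (4 to 6). The members' total was 5454 at 0 h and 4889 at 24 h, and the 24 h part of both was 47.3% (46.3 to 48.2). Unmarked bins of equal total number gave 47.4%, a difference of -0.15 points (-1.12 to 0.82). Both intervals count each unit of the column 4 number, and not each bin, as separate. What such a unit is was not known, so whether these intervals are wide enough was not tested. Of 465 bins listed at both times, 284 were lower at 24 h (61.1%), beside 37.2% of all listed bins, and 92 were higher (19.8%), beside 22.5%. Column 4 itself differs between these sets, so the 2 counts are not at equal level.

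By domain the column 4 number was lower at 24 h in 159, higher in 46 and equal in 23. Runs of unmarked bins were not counted in this way, so these counts are a description. At equal total number the 24 h share was 47.3% in members and 47.4% in unmarked bins. The largest losses were at Ppp2r5c (64 to 49), Dlgap1 (44 to 29), Mapt (42 to 28), the distal Sox2 domain (53 to 40) and Pde4d (19 to 6). The largest gains after Klf5 were at Sall4 (32 to 39) and Glod5 (29 to 36), followed by Arhgap26, whose bins were listed at 24 h only, with 5 in all, and by Tlnrd1 and Mesd (31 to 35). At Mapt, which encodes tau, acetylation was lower too, from 10.6 to 5.90 in each bin (relative -0.62). At Klf5 the relative value was 0.08.

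Other unlabelled marks met column 6 unevenly. No member carried the mark of column 7, which 10.9% of other bins and 25.1% of unmarked bins of equal value carried. If the 470 were a sample, a count of 0 would allow a share of up to 0.638%, but they are all the members. None carried column 9 either, a mark on 303 bins that all had column 7. Column 5 was marked in 42 members (8.94%) against 2.79% of other bins, and column 8 in 20 (4.26%) against 3.55%. In all, 409 members carried none of these marks.

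Column 9 bins were also highly acetylated, with a 0 h median of 9.81 and KLF4 in 81.2%. At equal 0 h value, column 6 bins held KLF4 in 70.9% against 76.5% of column 9 bins (difference -5.60 points, -10.1 to -1.40). For 2 or more KLF4 peaks the difference had the other sign, 35.7% against 30.9% (4.78 points, 0.30 to 9.46). Their relative value was 0.07 higher (0.03 to 0.09), and the difference in gene starts was -6.52 points (-10.3 to -2.35). The difference in iPSC H3K27ac bases was 131 (-153 to 504), an interval that includes 0. In groups 1, 2, 4, 5, 6 and 7 of 0 h value, column 9 had only 1, 1, 3, 5, 5 and 4 bins. The intervals leave out the error of this reference and are too narrow. An interval that excludes 0 here does not settle the sign.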

How the data were processed

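For 12 samples, 4 lists were deposited: ESC bins at 0 h and 24 h, and iPSC KLF4 and H3K27ac peaks (positions only). The build mm10 and the tools MACS2, bedtools, SAMtools and Bowtie2 are named in the submitters' processing notes, with neither version nor role. How replicates were combined, the scaling and the depth are not given in the sources used here. The ESC lists have 10 columns without names. Column 10 was read as H3K27ac signal, deposited on a linear scale of unstated normalization, where the smallest number a computer stores means no value. Column 4 was taken as a deposited score and columns 5 to 9 as deposited marks in whole numbers.

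Log2 ratios were centred on the median of all bins, because the times may not share a scale. Equal level means 10 groups of 0 h value over all valued bins. Each column 6 bin was compared with the median, or share, of unmarked bins in its group. Shares have exact Clopper-Pearson intervals and medians order-statistic intervals at 95%. A fold of 0.5 on the log2 scale counted as called. The scripts were tested on simulated data. Genes, promoters and microRNAs came from RefSeq GRCm38.p6, the primary assembly of mm10, matched by position or symbol. Named genes were Esrrb, Nanog, Tbx3, listed genes overlapping a column 6 bin, and genes at the longest domains, those with most or no KLF4 peaks, and those with extreme changes; Lefty2, Klf4 and other nearest genes were named after their values were seen. The members and the 15 gene lists were chosen with earlier results of these data known. Python 3.11.15, pandas 2.3.3 and scipy 1.17.1 were used.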

Additional observations from a re-analysis of the deposited data

How the results depend on the processing

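The differences of 2 results changed sign between settings. That of the 24 h share of column 4 ran from -0.18 to 0.39 points over 7 alternatives, and that of the relative value was 0.01 at equal 0 h value, -0.006 with 1 bin per domain, -0.002 against bins without any mark and -0.059 at equal mean of both times. With 1 bin per domain, the KLF4 share was 78.5% and its difference at equal value 27.05 points, the iPSC H3K27ac share 96.1% with 2988 more bases, the 0 h median 9.26 and the gene start difference -4.32 points (-9.94 to 1.96). Matched as well on gene-end class, which itself includes gene starts, the gene start difference was -1.62 points. Against bins without any mark, the KLF4 difference was 25.8 points. With the wider peaks only (above the median width), 52.3% held KLF4 and 89.4% iPSC H3K27ac. Without centring the median relative value was -0.33. In the 250 and 1000 largest clusters lay 43.4% and 71.5% of the bins. Added after seeing the data were comparison bins farther than 50 kb from a member, groups crossed with KLF4, and the alternatives for column 4, iPSC bases and gene starts. Of 78 alternative values, the other 64 moved by less than the interval of the reported value, or by less than 1.5 times for a count. Column 6 holds no value above 1, so a stricter mark could not be set. No paired analysis was possible because no list holds values per replicate, and no replicate could be left out. The depth of the libraries is unknown, and low groups of value hold few column 6 bins.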
